A study of Mus musculus with 26 samples.

Results

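Glucose enters a cell through facilitative transporters, is phosphorylated by hexokinase and is split and oxidised to pyruvate by the enzymes of glycolysis, after which lactate dehydrogenase can reduce pyruvate to lactate. The mouse embryo of the first cleavages is known to live mainly on pyruvate and lactate, and its use of glucose rises around compaction, which begins at the 8-cell stage. Described here are 10 genes of this route in single blastomeres of mouse 8-cell embryos, chosen by symbol. They are the glucose transporters Slc2a1 and Slc2a3, the hexokinases Hk1 and Hk2, the phosphofructokinases Pfkl and Pfkp, the aldolase Aldoa, the pyruvate kinase Pkm and the lactate dehydrogenases Ldha and Ldhb. All 10 were found among the 55487 genes of the table.

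Each cell gave both an RNA and a DNA library by scRR-seq, which traps the chromatin of a lysed cell on beads and sequences the RNA of the supernatant, with or without a poly(A) tail. The embryos came from in vitro fertilization of C57BL/6 oocytes with C57BL/6 sperm, were untreated and were dissociated by hand at the 8-cell stage. Their culture medium is not given in the sources used here. Columns were present for 9 of the 13 labelled cells, 3 from embryo 1 (cells 1, 6 and 7) and 6 from embryo 2 (cells 2, 3, 5, 6, 7 and 8). The remaining 4 were not analysed here. Each embryo is 1 biological replicate, so the cells of an embryo share their source, no test between embryos was made, and each SD is the spread between cells.

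Levels are TPM, the share of a transcript in the RNA of a cell after correction for its length, scaled to a total of 1000000, and a TPM table does not keep the number of reads behind a value. A gene without signal is called listed at 0. Between 11058 and 13319 genes per cell had TPM over 1, and mitochondrial genes took 4.28% to 6.77% of the TPM in the cells of embryo 1 and 5.98% to 18.2% in those of embryo 2. The share of replicated bins was at most 3.54% in the 3 cells of embryo 1 and at least 62.4% in the 6 of embryo 2, and Xist, an X-linked RNA, had 140.0 to 180.7 TPM in the former and at most 0.90 TPM in the latter. Embryo, replication and sex-linked RNA thus divide the cells in the same way and cannot be told apart. The paper classed representative cells of embryo 1, with uniform profiles, as G1 or G2/M. A call of unreplicated in embryo 1 may therefore not mean that the DNA is still to be replicated. The closing numbers of the sample names form the ranges 11 to 17 (embryo 1 cell 1, embryo 2 cells 2 and 3) and 20 to 25 (the other 6 cells), which the sample list of the study gives as the protocol variants scRR3 and scRR1. More genes were detected in the first range, 12411 to 13319 against 11058 to 11960, so differences between embryos are also given within each range. In the range 20 to 25 the mitochondrial shares of the embryos did not overlap. Without mitochondrial genes the median difference of the 10 genes described below was -0.50 in place of -0.55. Libraries made from embryos with scRR1 are known from the method's description to lean towards the 3' end of transcripts. TPM does not show coverage along a transcript, and transcript shares, above all of short transcripts at a 3' end, can depend on it. Markers of the 8-cell embryo were present, with Dppa5a at 1685 to 3102 TPM and Pou5f1 at 117.2 to 345.5 TPM. All 10 listed had a mean TPM over 1, though Nlrp5 averaged 5.06 TPM and Cdx2 1.40 TPM, with Cdx2 listed at 0 in 5 cells. None of 11 markers of cumulus and granulosa cells, 7 of sperm and 8 of blood and fibroblasts had a mean TPM over 1. The summed TPM of these lists reached 6.13, 1.62 and 2.88 in a cell, and the cumulus genes Amh, Fshr, Inha, Cyp19a1, Has2 and Tnfaip6 were listed at 0 in every cell.

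Along the pathway the RNA was uneven. Aldoa, which cleaves fructose-1,6-bisphosphate, was the most abundant of the 10 genes in the mean over the 9 cells (124.1 TPM ± 49.3, SD, n = 9 cells). It was higher than Hk1, the next in order, in 9 of 9 cells, by 1.85 ± 0.45 in log2(TPM + 1) (SD, n = 9). Hk1 (34.7 TPM), Hk2 (26.9), Slc2a3 (23.6), Pkm (22.6), Ldha (19.1), Slc2a1 (15.5) and Ldhb (15.2) followed, and between any of these neighbours the mean difference in log2(TPM + 1) was smaller than its SD over the cells. Ldhb was higher than Pfkl in 9 of 9 cells, by 2.63 ± 1.26 (SD, n = 9), which set the phosphofructokinases apart at the low end. Aldoa alone held 26.8% to 67.6% of the summed TPM of the 10 genes, with a median over the cells of 44.0%.

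**Figure D1:**
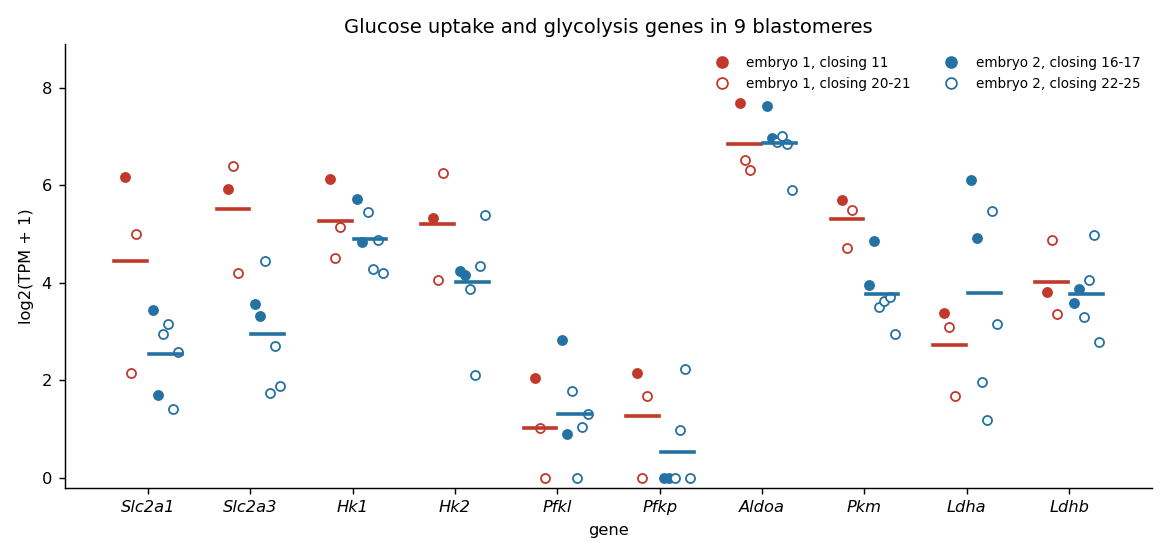
Level of each of the 10 genes, as log2(TPM + 1), in 3 cells of embryo 1 (red) and 6 cells of embryo 2 (blue). Points are cells, filled for closing numbers 11 to 17 and open for 20 to 25, and bars are embryo means. Aldoa lies above the other genes, Pfkl and Pfkp lie near 0, and the embryo 2 mean is lower by at least 1 for Slc2a1, Slc2a3, Hk2 and Pkm.

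The same unevenness was seen when all listed isozymes of a step were summed. The 3 phosphofructokinase genes Pfkl, Pfkp and Pfkm, the muscle form, summed to 0.88 to 8.22 TPM per cell, with a median of 2.98 TPM. The steps on either side were higher, with 26.2 to 105.8 TPM for the isomerase Gpi1 and 59.1 to 205.5 TPM for the aldolases. Low sums were also found for triosephosphate isomerase (0 to 33.6 TPM, listed at 0 in 2 cells) and the phosphoglycerate kinases (0.61 to 13.8 TPM), which were named after their values were seen. Phosphoglycerate mutases summed to 59.0 to 257.8 TPM. The genes of a step can be scarce as RNA beside abundant neighbours, and TPM says nothing of the enzyme present.

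**Figure D2:**
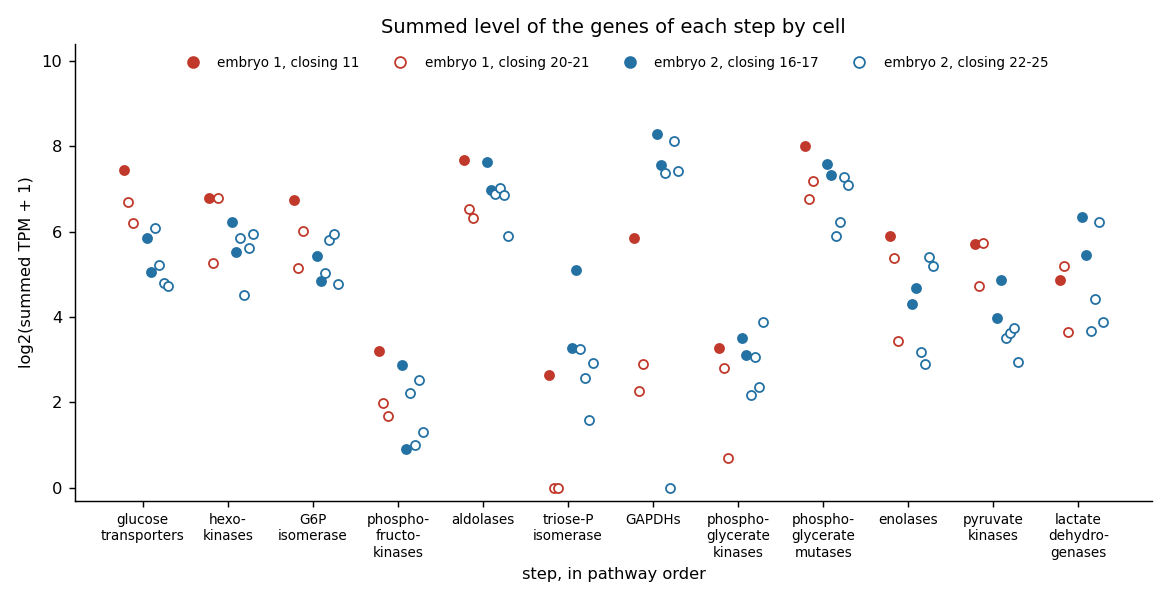
Summed TPM of all listed genes of each glycolytic step, as log2(summed TPM + 1), by cell, with the steps in pathway order. Colours and fills are as in the plot of single genes. The phosphofructokinases lie between 0.88 and 8.22 TPM, below Gpi1 and the aldolases in every cell.

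For Slc2a1 and Slc2a3, embryo 1 held the high values. The facilitative transporter Slc2a8, named after its values were seen, did not share this. Its mean over the 9 cells was 26.2 TPM and its embryos overlapped. Its mean log2(TPM + 1) differed by 0.006 (embryo 2 less embryo 1), beside a pooled SD of 0.53. Within closing numbers 11 to 17 the Slc2a8 difference was -0.55, and within 20 to 25 it was 0.29. Slc2a1 (GLUT1, the widely expressed transporter; ENSMUSG00000028645.11, chr4:119108711-119137983 of mm10, plus strand) stood at 71.5, 3.46 and 30.9 TPM in cells 1, 6 and 7 of embryo 1. In embryo 2 its lowest, median and highest levels were 1.65, 5.90 and 9.95 TPM. Cells 1 and 7 of embryo 1 were above every cell of embryo 2, while cell 6 lay inside the range of embryo 2. Mean log2(TPM + 1) in embryo 2 minus that in embryo 1 gave a difference of -1.90, beside a pooled SD between cells of 1.304. It was -3.60 within closing numbers 11 to 17 and -1.05 within 20 to 25, and it was -1.03 without cell 1 and -3.04 without cell 6 of embryo 1.

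Slc2a3 (GLUT3, a high-affinity transporter; ENSMUSG00000003153.10, chr6:122727809-122801640, minus strand) had 60.1, 83.3 and 17.3 TPM in cells 1, 6 and 7 of embryo 1. In embryo 2 it had a lowest level of 2.37, a median of 7.22 and a highest of 20.96 TPM. The embryos met only at cell 7 of embryo 1, which was below cell 5 of embryo 2. The difference of -2.56, with a pooled SD of 1.08, was the largest in size among the 10 genes, and it was -2.49 within closing numbers 11 to 17 and -2.60 within 20 to 25.

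Slc2a1 and Slc2a3 did not go together from cell to cell. Cell 6 of embryo 1 had the highest Slc2a3 and the lowest Slc2a1 of its embryo, so that Slc2a1 made up 3.99% of the Slc2a1 + Slc2a3 sum there, against 54.3% in cell 1 and 64.0% in cell 7. In embryo 2 the share ran from 20.2% to 76.9%. Embryo 1 averaged 40.8% ± 32.2 (SD, n = 3) and embryo 2 averaged 43.0% ± 24.2 (SD, n = 6), and they differed by less than the spread between cells. The gap was 2.17 percentage points over all cells, -20.3 within closing numbers 11 to 17 and 13.4 within 20 to 25, so its direction was not settled.

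Much of the Slc2a1 and Slc2a3 RNA was assigned to transcripts that do not encode the whole protein. Of the Slc2a1 TPM summed over the cells, 73.5% was in Slc2a1-204, annotated as a target of nonsense-mediated decay, and 26.5% in protein-coding transcripts. The full-length coding transcript Slc2a1-201 was above 0 in 4 of 9 cells, at 12.1 and 4.23 TPM in cells 1 and 7 of embryo 1 and at 3.93 and 1.79 TPM in cells 5 and 8 of embryo 2. Slc2a1-204 held on average 55.1% of the gene in closing numbers 11 to 17 and 82.1% in 20 to 25. For Slc2a3, 61.1% was in the coding Slc2a3-201 and 35.9% in Slc2a3-204, which retains an intron. Slc2a3-201 had 46.4, 46.1 and 14.7 TPM in cells 1, 6 and 7 of embryo 1, and in embryo 2 it had 2.38, 3.16 and 16.8 TPM in cells 2, 3 and 5 and no signal (listed at 0) in cells 6, 7 and 8. The coding form was thus high in embryo 1 and, in embryo 2, reached that level in cell 5 only. The retained-intron form was above 0 in 9 of 9 cells. Under 50% of the TPM in protein-coding transcripts was found for 2 of the 9 members that could be counted, Slc2a1 and Hk2, and for 21.9% of 10389 protein-coding genes counted in the same way, so these shares are not particular to the group.

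**Figure D3:**
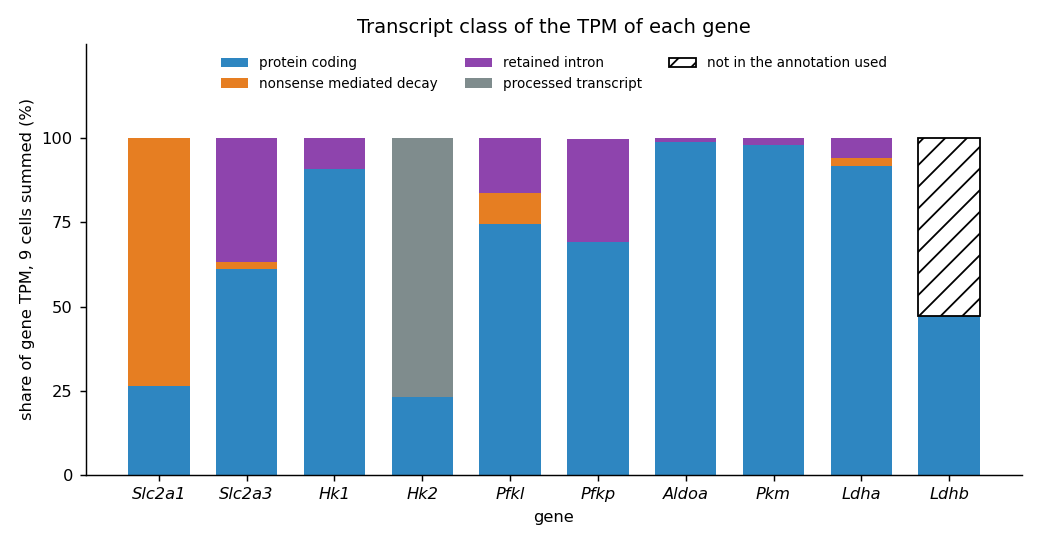
Share of the TPM of each gene, summed over the 9 cells, by the GENCODE class of the transcript it was assigned to (stacked bars, percent). Protein-coding transcripts hold 26.5% for Slc2a1 and 22.97% for Hk2, and 52.8% of Ldhb belongs to transcripts not in the annotation used here.

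Of the hexokinases, which trap glucose in the cell as glucose-6-phosphate, Hk1 was the steadier. Hk1 (ENSMUSG00000037012.18, chr10:62268855-62379908, minus strand) stood at 69.0, 21.8 and 34.3 TPM in cells 1, 6 and 7 of embryo 1. Its lowest, median and highest levels in embryo 2 were 17.4, 28.1 and 52.0 TPM. The embryos overlapped broadly, and the difference in mean log2(TPM + 1) of -0.36 was smaller than the pooled SD of 0.68. It was -0.84 within closing numbers 11 to 17 and -0.12 within 20 to 25, and it was 0.075 without cell 1 and -0.73 without cell 6 of embryo 1, so its direction was not settled. Most Hk1 RNA, 75.5% of its TPM, was in the coding transcript Hk1-201. In cell 1 of embryo 1, 26.1 TPM of its 69.0 TPM was in Hk1-220, a retained-intron transcript that reached at most 1.54 TPM in any other cell.

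Hk2, the inducible hexokinase (ENSMUSG00000000628.10, chr6:82725025-82774454, minus strand), stood at 39.4, 15.6 and 75.04 TPM in cells 1, 6 and 7 of embryo 1. In embryo 2 its lowest level was 3.30, its median 17.4 and its highest 41.3 TPM. Cell 7 of embryo 1 was above all others, and the remaining cells of the embryos overlapped. The difference was -1.19, beside a pooled SD of 1.08, and it fell short of 1 without cell 7 of embryo 1 (-0.67) or cell 6 of embryo 2 (-0.80). It was -1.13 within closing numbers 11 to 17 and -1.22 within 20 to 25. Of the Hk2 TPM, 77.0% was in Hk2-202, a non-coding transcript of 594 bases at the 3' end of the gene (chr6:82725062-82726309). The coding Hk2-201 had 3.53 to 9.01 TPM in embryo 1. In embryo 2 Hk2-201 was at 1.33 to 6.60 TPM in 5 cells and at 23.9 TPM in cell 8, the highest of the 9 cells. The high Hk2 of cell 7 of embryo 1 was 70.9 TPM of Hk2-202 and 4.16 TPM of Hk2-201. Reads at a 3' end that both transcripts share can be divided between them only by estimate. Hk2-202 held on average 75.9% of the gene in closing numbers 11 to 17 and 73.4% in 20 to 25. Hk1 made up over 50% of the Hk1 + Hk2 sum in 7 of 9 cells, and its share averaged 51.1% ± 17.3 (SD, n = 3) over embryo 1 and 64.4% ± 19.4 (SD, n = 6) over embryo 2. That gap of 13.3 percentage points was smaller than the pooled SD of 18.9. It was 4.54 within closing numbers 11 to 17 and 17.7 within 20 to 25, and with single cells left out it ran from 3.39, without cell 7 of embryo 1, to 20.2, without cell 8 of embryo 2. The latter, and 19.6 without cell 1 of embryo 1, exceed that SD.

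**Figure D4:**
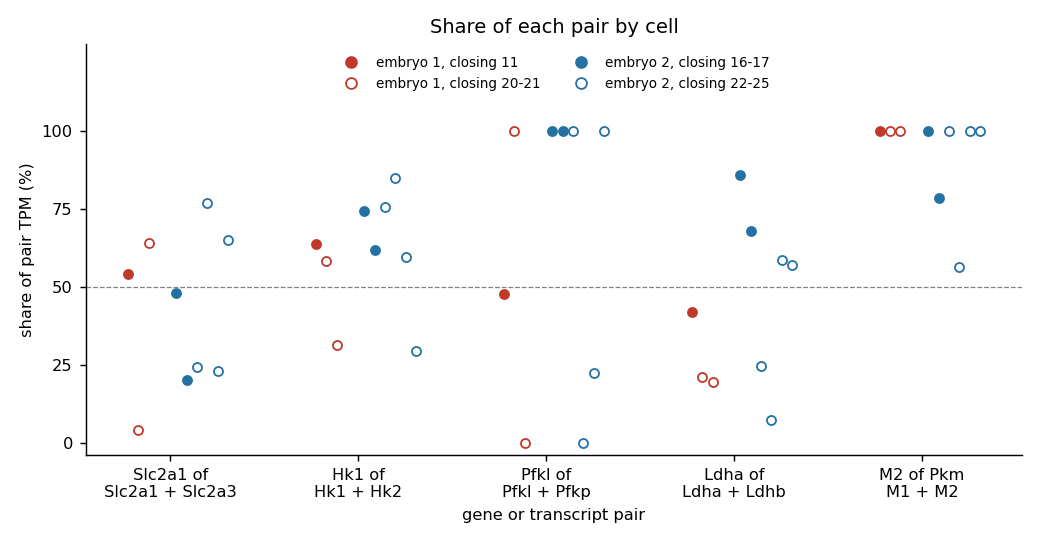
Share of the first named gene or transcript in the summed TPM of each pair (percent), by cell, with colours and fills as in the plot of single genes and a dashed line at 50%. Hk1 exceeds 50% in 7 of 9 cells, the phosphofructokinase share runs from 0 to 100, and the Pkm M2 share is 100% in 7 of 9 cells.

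Phosphofructokinase commits fructose-6-phosphate to glycolysis. Pfkl, the liver form (ENSMUSG00000020277.10, chr10:77986947-78010083, minus strand), had 3.13, 1.03 and 0 TPM in cells 1, 6 and 7 of embryo 1 and a lowest, median and highest level of 0, 1.28 and 6.13 TPM in embryo 2. Pfkp, the platelet form (ENSMUSG00000021196.14, chr13:6579768-6648777, minus strand), had 3.44, 0 and 2.21 TPM in cells 1, 6 and 7 of embryo 1 and was above 0 in embryo 2 only in cell 6, at 0.99 TPM, and cell 7, at 3.71 TPM. Both were low in every cell and the embryos overlapped, with differences in mean log2(TPM + 1) of 0.29 for Pfkl and -0.74 for Pfkp, each under its pooled SD of 0.97 and 0.99. Within closing numbers 11 to 17 and 20 to 25 the difference was -0.17 and 0.53 for Pfkl and -2.15 and -0.03 for Pfkp. The value for Pfkp was -0.30 without cell 1 and -1.38 without cell 6 of embryo 1, and -1.08 without cell 7 of embryo 2, and it became -1.78 with a pseudocount of 0.1, since 5 of its 9 values are 0. For Pfkl it was -0.22 without cell 7 of embryo 1, so neither gene has a settled difference. Their share of one another carried little, since 1 of the pair was listed at 0 in 7 of 9 cells. The 3' end of Pfkp overlaps that of Pitrm1, a peptidase gene on the opposite strand, over 748 bases, and Pitrm1 had 3.31 to 24.9 TPM. Whether the counting used strand is not given in the sources used here, and reads in that stretch cannot be told apart without it.

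Aldoa (ENSMUSG00000030695.16, chr7:126795234-126800751, minus strand) stood at 205.5, 91.3 and 79.0 TPM in cells 1, 6 and 7 of embryo 1. In embryo 2 its lowest, median and highest levels were 59.1, 121.2 and 197.2 TPM. Embryo 1 averaged 125.2 TPM ± 69.8 (SD, n = 3) and embryo 2 123.5 TPM ± 44.1 (SD, n = 6), and the log2 difference of 0.03 was smaller than the pooled SD of 0.61, with -0.38 within closing numbers 11 to 17 and 0.24 within 20 to 25. The transcripts that carried it varied from cell to cell. They begin at separate first exons, and Aldoa-203, with the upstream start, held 100% of the TPM in cell 6 and 86.6% in cell 7 of embryo 1, while Aldoa-201 held 65.4% in cell 1. In embryo 2 Aldoa-203 held 0 to 55.2%. A second gene identifier with the symbol Aldoa (ENSMUSG00000114515.2, chr7:126800790-126809108) was listed at 0 in 8 of 9 cells and at 0.89 TPM in cell 7 of embryo 2.

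Pkm (ENSMUSG00000032294.17, chr9:59656368-59679375, plus strand) encodes the pyruvate kinase of most tissues and is spliced with 1 of 2 mutually exclusive exons, M1 of adult muscle and brain or M2 of embryonic and proliferating cells. Both exons are shown because they define the M1 and M2 transcripts in the annotation. They are coding, are each exon 9 of 11 in its transcript and have 167 bases, of which 103 (61.7%) are identical, and the 64 positions that differ are in capitals. The sequences are of the GRCm38.p6 genome (mm10), plus strand, M1 at chr9:59675029-59675195 and M2 at chr9:59675568-59675734.
Pkm M1 exon: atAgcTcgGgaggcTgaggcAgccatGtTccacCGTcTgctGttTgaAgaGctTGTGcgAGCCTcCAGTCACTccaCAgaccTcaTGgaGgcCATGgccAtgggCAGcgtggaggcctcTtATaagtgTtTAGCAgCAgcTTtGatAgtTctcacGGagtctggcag
Pkm M2 exon: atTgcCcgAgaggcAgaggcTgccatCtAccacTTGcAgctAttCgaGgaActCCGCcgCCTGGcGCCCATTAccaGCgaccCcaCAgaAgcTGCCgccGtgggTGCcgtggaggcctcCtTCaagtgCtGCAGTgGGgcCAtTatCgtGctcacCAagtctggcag
At this level of difference reads inside the exons can be assigned to 1 of them. Reads over the exons were not counted here. The M1 and M2 values below are estimates for the whole transcripts Pkm-202 (2041 bases) and Pkm-201 (2432 bases). These also differ at their ends, so the shares do not rest on the exons alone.

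Pkm stood at 50.9, 25.5 and 44.3 TPM in cells 1, 6 and 7 of embryo 1. In embryo 2 its lowest, median and highest levels were 6.71, 11.7 and 28.0 TPM. All 3 cells of embryo 1 were above 5 of the 6 cells of embryo 2, and only cell 3 of embryo 2, at 28.0 TPM, passed the lowest cell of embryo 1. Embryo 1 averaged 40.2 TPM ± 13.2 (SD, n = 3) and embryo 2 13.8 TPM ± 7.38 (SD, n = 6), and the difference of -1.54 in mean log2(TPM + 1) was 2.91-fold on that scale, beside a pooled SD of 0.60. It was -1.29 within closing numbers 11 to 17 and -1.67 within 20 to 25.

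The M2 transcript Pkm-201 was present in 9 of 9 cells and held 87.4% of the Pkm TPM. The M1 transcript Pkm-202 was listed at 0 in 7 cells and had 5.77 TPM in cell 3 and 4.94 TPM in cell 6 of embryo 2, beside 21.01 and 6.38 TPM of M2. M2 therefore made up 100% of M1 + M2 in embryo 1, and in embryo 2 it was 100% in 4 cells, 78.5% in cell 3 and 56.4% in cell 6. The mean in embryo 2 was 89.1% ± 18.2 (SD, n = 6 cells), a gap to embryo 1 of -10.9 percentage points that was smaller than the pooled SD of 15.4 and was -4.31 without cell 6 of embryo 2. In cell 8 of embryo 2, the lowest for Pkm, 4.04 of its 6.71 TPM was in Pkm-205, which retains an intron. The processed pseudogene Gm6560 matches 1593 bases of a Pkm transcript at 98.4% identity and was listed at 0 in every cell, and Gm49759, a gene model of the GENCODE class TEC inside Pkm, was above 0 only in cell 5 of embryo 2, at 1.77 TPM.

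Ldha encodes the M subunit of lactate dehydrogenase, which favours the formation of lactate, and it was the 1 gene of the 10 whose mean was higher by 1 or more in embryo 2. Ldha (ENSMUSG00000063229.15, chr7:46841475-46855627, plus strand) stood at 9.46, 7.59 and 2.22 TPM in cells 1, 6 and 7 of embryo 1. In embryo 2 it had 68.1, 29.3, 2.93, 1.27, 43.4 and 7.91 TPM in cells 2, 3, 5, 6, 7 and 8. Cells 2, 3 and 7 of embryo 2 were above every cell of embryo 1, and cells 5, 6 and 8 were within or below its range. The difference of 1.08 was smaller than the pooled SD of 1.76, the widest spread of the 10 genes, and it was 2.13 within closing numbers 11 to 17 and 0.55 within 20 to 25. Without cell 7 of embryo 1 it was 0.56, and without cell 2, 3 or 7 of embryo 2 it was 0.62, 0.85 or 0.74, each short of 1. The pseudogenes Gm11814, Gm5452, Gm9247 and Ldha-ps2 match Ldha at 95.3% to 95.9% identity over 314 to 1000 bases and were listed at 0 in every cell.

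Ldhb encodes the H subunit, which favours the use of lactate. Ldhb (ENSMUSG00000030246.12, chr6:142490249-142507957, minus strand) stood at 13.1, 28.3 and 9.23 TPM in cells 1, 6 and 7 of embryo 1. Its lowest, median and highest levels in embryo 2 were 5.95, 12.4 and 30.6 TPM. The embryos overlapped throughout, and the difference of -0.24 was smaller than the pooled SD of 0.75. It was -0.08 within closing numbers 11 to 17 and -0.33 within 20 to 25, and 0.19 without cell 6 of embryo 1. Of its TPM, 47.2% was in transcripts of the annotation used here, and the rest belongs to transcripts of the later annotation of the authors. The pseudogene Gm5514 matches it at 98.0% identity over 1002 bases and was above 0 in 2 cells, at 0.72 and 2.09 TPM, so a small part of the Ldhb signal is uncertain.

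The balance of the subunits largely followed Ldha. In cell 8 of embryo 2 the Ldha share was 57.1% with Ldha at 7.91 TPM, since Ldhb was at its lowest there, 5.95 TPM. Ldha made up 42.0%, 21.2% and 19.4% of the Ldha + Ldhb sum in cells 1, 6 and 7 of embryo 1, below 50% in each. In embryo 2 the share ran from 7.47% to 86.0%, and it was above 50% in cells 2, 3, 7 and 8. Embryo 1 averaged 27.5% ± 12.6 (SD, n = 3) and embryo 2 50.3% ± 29.0 (SD, n = 6), and their gap of 22.8 percentage points was smaller than the pooled SD of 25.4. It was 35.1 within closing numbers 11 to 17 and 16.7 within 20 to 25.

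Over the 10 genes, 4 were lower in embryo 2 by 1 or more in mean log2(TPM + 1), namely Slc2a3, Slc2a1, Pkm and Hk2, and 1 was higher, Ldha. Among the 13612 nuclear genes with mean TPM over 1, 10.7% were lower by that amount and 7.6% were higher, or 18.3% in either direction. The remaining 5 genes differed by less than 1. The median difference of the 10 was -0.55, beside -0.04 over the 13612 genes, and 7 of the 10 had a negative difference. The 10 markers of the 8-cell embryo had a median of -0.43, with 9 negative, in the same direction. Within closing numbers 11 to 17 the median was -0.99 and within 20 to 25 it was -0.22, and it was -0.32 without cell 1 and -1.06 without cell 6 of embryo 1. The number of genes past 1 was 3 without cell 7 of embryo 1, where Hk2 and Ldha no longer counted. For none of the 10 did the embryos stand apart in every cell, which was so for 3.34% of the 13612 genes (2.51% lower and 0.83% higher in every cell of embryo 2). Without cell 6 of embryo 1 the embryos stood apart for Slc2a1 and Pkm, without cell 7 of embryo 1 for Slc2a3, without cell 3 of embryo 2 for Pkm, and without cell 5 of embryo 2 for Slc2a3. With 10 genes in 2 embryos these counts are a description of these embryos.

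The summed TPM of the 10 genes was 525.3, 277.8 and 294.4 in cells 1, 6 and 7 of embryo 1 and had a lowest, median and highest value of 147.6, 239.7 and 387.7 in embryo 2. Cell 1 of embryo 1 was the highest and cell 2 of embryo 2 the next, and the embryos overlapped. The log2 ratio of the embryo means was -0.58, and -0.23 without cell 1 of embryo 1. The sum was also higher in closing numbers 11 to 17 (253.0 to 525.3) than in 20 to 25 (147.6 to 294.4), although both ranges met. Between the ranges, Slc2a1, Pfkl and Ldha were higher by 1 or more in 11 to 17 with the same sign in both embryos, against 14.3% of all genes tested, and none was lower, against 3.73%. The median range difference was 0.86 for the 10 genes and 0.31 for all genes tested, and for the 10 genes it was 0.53 after the median of the tested genes had been set equal in all cells. For Ldha it was 0.99 in embryo 1 and 2.57 in embryo 2, and for Slc2a1 it was 2.60 and 0.05, so the latter rests on cell 1 of embryo 1.

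Beyond the 10 genes, 5 further lists of genes around glycolysis were examined. Of 12 other glycolysis genes with mean TPM over 1, 1 was lower and 2 were higher by 1 or more in embryo 2. Over all genes tested these shares were 10.7% and 7.6%. The most abundant by mean were Pgam1, the phosphoglycerate mutase (59.0 to 252.3 TPM), Gapdh and Gpi1 (26.2 to 105.8 TPM). Gapdh, which oxidises glyceraldehyde-3-phosphate, stood at 56.4, 3.78 and 6.46 TPM in cells 1, 6 and 7 of embryo 1. It had 311.9, 187.4, 166.3, 0, 277.9 and 171.5 TPM in cells 2, 3, 5, 6, 7 and 8 of embryo 2. It was thus above embryo 1 in 5 of the 6 cells of embryo 2 and listed at 0 in the sixth. There are 103 annotated genes with a transcript nearly identical to one of Gapdh, and their TPM summed to 2.77 to 25.4 in embryo 1 and 26.7 to 229.8 in embryo 2, so the level of Gapdh itself is uncertain. The others past that size, named after their values were seen, were Tpi1, higher by 2.24 and listed at 0 in cells 6 and 7 of embryo 1, and the liver pyruvate kinase Pklr, with a difference of -1.196. Pklr had 8.04 TPM in cell 7 of embryo 1 and at most 0.83 TPM in any other cell, and it passed the mean of 1 through that cell.

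Genes that handle pyruvate and lactate included some of the most abundant on these lists. Of 19, 12 had a mean TPM over 1, and of these 11 differed by less than 1, beside 81.7% of all genes tested. The mitochondrial pyruvate carriers Mpc2 (213.5 to 1162 TPM) and Mpc1 (143.9 to 384.6 TPM) were the highest, and Pdha1, the E1 alpha subunit of pyruvate dehydrogenase, ranged over 283.8 to 348.6 TPM in embryo 1 and over 105.7 to 220.9 TPM in embryo 2. Pdha1 did not overlap between the embryos, with a difference of -0.92. The gene past 1 was Slc16a1 (MCT1, the monocarboxylate transporter that carries lactate and pyruvate), with 12.6, 17.6 and 9.13 TPM in cells 1, 6 and 7 of embryo 1 and from 1.49 to 7.39 TPM in embryo 2, a difference of -1.51 with no overlap. Genes lower in embryo 2 by 1 or more and in every cell were 1.87% of the 13612 tested. Pdha1 is X-linked, as are Tktl1 and Pfkfb1 below, for both of which the embryos overlapped. Other X-linked genes of these lists with mean TPM over 1 were named after their values were seen. Pgk1 was higher in embryo 2 by 0.76, G6pdx differed by -0.04 and Pdk3 by -0.997. The part of the division by Xist given above in these differences was not tested.

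Regulators, the pentose phosphate branch and gluconeogenesis completed the lists. Of 11 regulators with mean TPM over 1, 2 were lower by 1 or more and none was higher, beside 10.7% and 7.6% of all genes tested. The 2 were Myc (-1.38) and the kinase Pfkfb1 (-1.26), both named after their values were seen. The most abundant were Vhl, which targets hypoxia-inducible factors for degradation (87.0 to 312.2 TPM), Tigar, a fructose-2,6-bisphosphatase (19.5 to 167.7 TPM), and Epas1, a hypoxia-inducible factor (42.8 to 104.7 TPM). Of 8 pentose phosphate genes, 7 differed by less than 1, beside 81.7% of all genes tested. Tkt (76.0 to 303.5 TPM), Taldo1 (94.6 to 194.0 TPM) and Pgd (92.8 to 146.2 TPM) led by level, Taldo1 was lower in every cell of embryo 2 by 0.64, and the 1 gene past 1 was Tktl1 (-2.19), named after its values were seen, with embryos that overlapped through cell 6 of embryo 2. Of 4 gluconeogenic genes, 0 were past 1, beside 18.3% of all genes tested. Fbp2, a fructose-1,6-bisphosphatase that opposes phosphofructokinase, was at 149.5 to 582.0 TPM, above the summed phosphofructokinases in every cell. G6pc3 was at 4.86 to 23.4 TPM and Pck2 at 0.77 to 15.6 TPM.

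**Figure D5:**
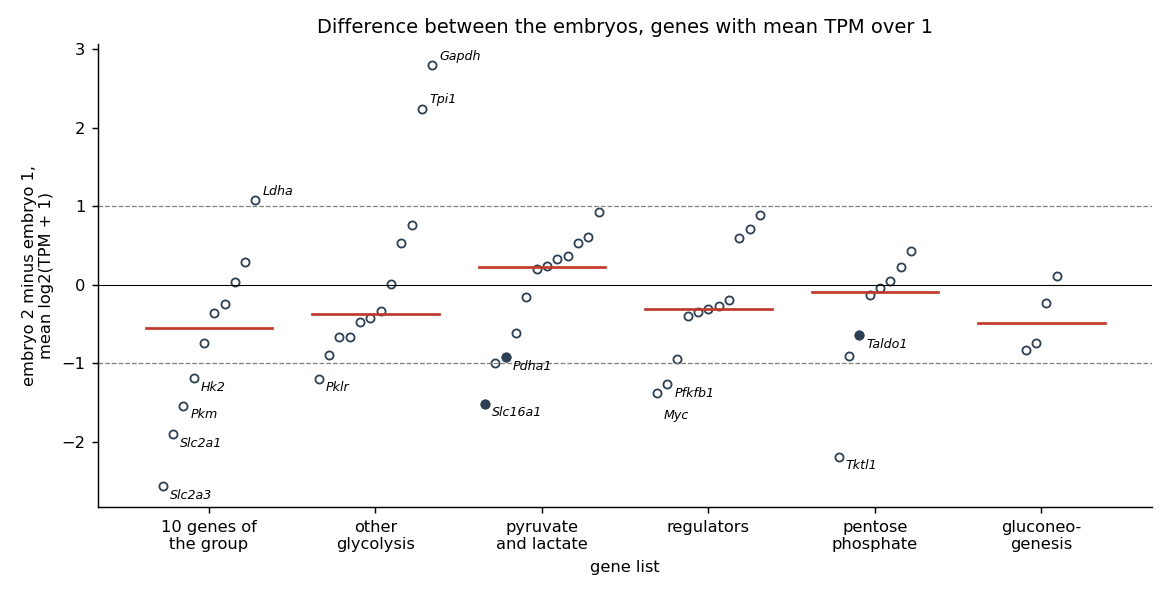
Difference between the embryos (embryo 2 less embryo 1) in mean log2(TPM + 1) for genes with mean TPM over 1, by list. Points are genes, filled where the embryos do not overlap, red lines are list medians and dashed lines mark -1 and 1. Slc2a3 is the lowest point of the 10 genes at -2.56 and Ldha the highest at 1.08.

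The genes whose log2(TPM + 1) moved most like the log2 summed TPM of the 10 over the 9 cells, of 6820 nuclear genes compared, were Glg1 (Pearson's r = 0.95), Copg1 (0.94) and Cstf2 (0.94). Glg1, a Golgi glycoprotein, had 32.0, 17.8 and 14.5 TPM in cells 1, 6 and 7 of embryo 1 and between 9.07 and 26.2 TPM in embryo 2. The points are 9 cells of 2 embryos and 2 closing-number ranges, so cells of an embryo or a range are not independent, and these genes were picked from many, so the coefficients are a description.

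The bases before the starts of the 10 genes were read for ACGTG on either strand. ACGTG is the core of the element bound by hypoxia-inducible factors. RefSeq (GRCm38.p6) gave 14 starts for 9 of the 10 genes, without Slc2a3. The motif occurs in the 250 bases before 16.6% of 32851 starts, and CACGTG, the E-box that contains it on both strands, in 6.02%. It was found before 6 of the 14 starts, of 5 genes (Slc2a1, Hk2, Aldoa, Pkm and Ldha). The 16.6% is a share of starts, and some of these genes have several. No share by gene was computed, and the 16.6% was not matched for base composition. The 2 Aldoa windows with a match overlap and hold the same one. The windows of Hk2 and Ldha hold the most matches. They are printed in full, 5' to 3' on the strand of the gene, with matches in capitals.
Hk2, chr6:82774455-82774704, minus strand: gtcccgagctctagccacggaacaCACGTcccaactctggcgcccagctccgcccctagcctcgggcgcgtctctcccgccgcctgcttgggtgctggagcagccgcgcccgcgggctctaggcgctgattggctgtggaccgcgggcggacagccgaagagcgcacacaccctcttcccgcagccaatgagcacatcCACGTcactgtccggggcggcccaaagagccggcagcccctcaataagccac
Ldha, chr7:46845554-46845803, plus strand: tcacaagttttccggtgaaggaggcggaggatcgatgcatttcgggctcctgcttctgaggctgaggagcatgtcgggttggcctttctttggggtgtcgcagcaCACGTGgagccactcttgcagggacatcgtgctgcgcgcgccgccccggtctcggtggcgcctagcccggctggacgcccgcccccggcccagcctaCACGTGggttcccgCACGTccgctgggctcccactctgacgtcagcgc
The Hk2 window has 2 separate matches. It lies before the start of Hk2-201, which held 22.97% of the Hk2 TPM. Hk2-202, at the 3' end of the gene, held 77.0%, so the gene-level difference of Hk2 does not describe the transcript that starts there. The Ldha window has 5, which lie in 2 copies of CACGTG and 1 further CACGT, the nearest ending 29 bases before the start. A match is a stretch of letters and not a bound site, and a link between matches and levels was not tested.

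Replication state was read for the 5 genes on chromosomes with bins of 40 kb in the table. Slc2a1, Pfkp and Pkm were called unreplicated in all 3 cells of embryo 1 and replicated in all 6 cells of embryo 2. The call in embryo 1 may not tell G1 from G2/M, as given above. In embryo 2 Ldha was called replicated in all 6 cells, and Aldoa in 5 of 6, with cell 7 unreplicated. Both genes, on chromosome 7, were also called replicated in cell 1 of embryo 1, as were 3.54% of its bins with a state. The paper excepts regions with chromosomal abnormalities from the uniform profiles of representative embryo 1 cells. A call of replicated in that cell may therefore not mean replication. Over the genome, 48.7% of the bins with a state in all 6 cells of embryo 2 were replicated in all 6. Slc2a1, Pkm and Pfkp, replicated in each cell of embryo 2, had lower mean TPM there, and Ldha, also replicated, had a higher mean. For Pfkp, listed at 0 in 5 cells, the means were 0.78 TPM in embryo 2 and 1.88 TPM in embryo 1. A link between replication state and level was not tested, and replication cannot be told apart from embryo here. In cell 7 of embryo 2, with Aldoa unreplicated, Aldoa was at 114.4 TPM, beside 59.1 to 197.2 TPM in the 5 cells with it replicated. Chromosomes 6 and 10, which carry Slc2a3, Hk2, Ldhb, Hk1 and Pfkl, have no bins in the table used, and these genes were not analysed here for replication.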

How the data were processed

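RNA and DNA of single blastomeres from 2 mouse 8-cell embryos were analysed. The RNA tables deposited by the authors give TPM for 55487 genes and 142699 transcripts (ramdaq with Hisat and RSEM, GENCODE M25, mm10, after setting all cells to a common read number). TPM columns sum to 1000000 and keep no depth, so no counting interval was computed. For DNA, the authors deposited a replication score of 1, 0 or -1 for 40 kb bins (reads aligned with BWA 0.7.17-r1188, per the submitters' notes, and states called with AneuFinder). Each table also held 14 columns with no label of this series, which were not used. RNA headers repeat one embryo and cell, so RNA columns were matched by assay and closing number.

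Genes were placed by GENCODE M21 on identifiers without version (55141 matched). Values were analysed as log2(TPM + 1). Embryos were compared by the difference of means, the pooled SD between cells, a threshold of 1 (a doubling) and overlap, with no test, because each embryo is 1 replicate. Differences on this scale understate changes of low genes. Near-identical transcripts had at least 95% identity over at least 300 bases (blastn 2.17.0). Pkm M1 and M2 were the transcripts with the first or second exclusive exon. The difference measure was tested on simulated data with less spread between cells than here and shifts larger than the threshold. That test therefore does not bear on differences near 1. Named genes were all 10 members, the 3 highest by mean TPM of each wider list, those past the threshold without overlap, the 3 most alike in profile and the near-identical genes. Members, lists and rules were chosen with earlier results of these data known. Alternatives were a pseudocount of 0.1, TPM without mitochondrial genes, centring of each cell, a filter on mean TPM, leaving out each cell, and each closing-number range. Python 3.11.15, numpy 2.4.6, pandas 2.3.3 and matplotlib 3.10.9 were used.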

Additional observations from a re-analysis of the deposited data

Results flagged for a closer look

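In 2 of the 16 sets of 6 embryo 2 values examined (the 10 genes, the 5 pair shares and the summed TPM), 1 cell stood apart from the others by Dixon's measure, the gap to the nearest cell divided by the whole range (limit at 95%, 6 values). For Pfkp the measure was 0.733, with 3.71 TPM in cell 7 beside 0.99 TPM in cell 6 and 0 in the other cells. For Pkm it was 0.633, with 27.97 TPM in cell 3 beside 14.5 TPM in cell 2. For independent values chance alone would give about 1 flag in 20 sets, or 0.8 in 16. That rate does not hold here, since cells share an embryo and the shares and the sum reuse the 10 genes.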

How the results depend on the processing

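No paired analysis was possible because each embryo is 1 replicate and no test was made, and the cell numbers 6 and 7 that both embryos share name separate cells. With single cells left out in turn, the median difference of the 10 genes ranged from -1.06 to -0.32, the number past 1 from 3 to 6 and the number without overlap from 0 to 2. Slc2a3 (-3.22 to -2.12), Slc2a1 (-3.04 to -1.03) and Pkm (-1.83 to -1.35) stayed beyond -1 in each of these, and under the pseudocount of 0.1, without mitochondrial genes, after centring and within both ranges. Hk2 (-1.77 to -0.67) and Ldha (0.56 to 1.60) came inside a difference of 1 without some cells. With single cells left out, medians of the wider lists ranged from -0.44 to -0.0068 for regulators and from -0.56 to 0 for gluconeogenesis. Restricted to genes with mean TPM over 1, the medians were -0.38 for other glycolysis genes and 0.22 for pyruvate and lactate genes, each 0 over the whole lists, and -0.48 for gluconeogenesis. Within closing numbers 20 to 25 they were -0.12 for regulators and -0.58 for gluconeogenesis, which was 0 within 11 to 17. The cause of these shifts was not tested. In 179 further alternatives of a summary value and 137 of a single gene, the value moved by less than the spread between cells or, for a count, by no more than 1.5 times. Bins at the transcription starts gave the same replication states. TPM does not show how many reads stand behind a level, and for genes as low as Pfkl and Pfkp a value of 0 is not absence.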
